A study of Mus musculus with 12 samples.

Results

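The translation initiation and elongation factors of the mouse were followed across 12 two-colour arrays of cortical neurospheres, balls of cultured neural stem cells and their progeny that grow in suspension. Members were all probes whose annotated symbol begins with Eif and a digit from 1 to 6, or with Eef and 1 or 2, which also takes in the eIF4E-binding proteins. This gave 66 probes of 57 symbols among 21738 probes, and each had a value on at least 6 arrays. Pseudogenes accounted for 2 of these probes, and 3 more stood in a run of accessions in which the annotation names 6 small nucleolar RNA probes, so these 5 were set apart. The other 61 probes represent 54 genes.

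The neurospheres were grown from the cortex of mouse embryos of gestational day 12.5 without serum, with EGF, basic FGF and LIF as mitogens. Prominin cultures at 108 h, control cultures at 108 h, prominin cultures at 24 h and control cultures at 24 h were each measured on 3 arrays. Prominin cultures received an adenovirus that expresses R-prominin1 (CD133), a membrane glycoprotein of cell protrusions. The treatment text gives controls growth medium alone, whereas the design text speaks of GFP or prominin neurospheres, so effects of the virus and of prominin-1 cannot be told apart. The treatment text of the prominin 24 h samples gives 108 h, but their titles say 24 h, and the titles were followed. Neurosphere RNA carried Cy5, and RNA of whole C57/Bl6 embryos of gestational day 12 carried Cy3 on every array, without a dye swap. The labels name no separate cultures behind the replicates, so a p-value here reflects only the spread among arrays, which may be technical.

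Translation of most mRNAs begins at the cap. The factor eIF4E binds the cap and, with the scaffold eIF4G and the RNA helicase eIF4A, forms eIF4F, while eIF4E-binding proteins compete with eIF4G for eIF4E until the kinase mTOR phosphorylates them. The small ribosomal subunit arrives with eIF3, the scanning factors eIF1 and eIF1A, and a ternary complex of eIF2, GTP and initiator tRNA. Stress kinases phosphorylate eIF2, which blocks its exchange factor eIF2B, lowers general initiation and favours translation of Atf4. In elongation eEF1A delivers aminoacyl-tRNA, the eEF1B complex recharges eEF1A with GTP, and eEF2, which the kinase eEF2K inhibits, moves the ribosome along.

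Values are log2 ratios, read as neurosphere over embryo RNA, after each array was centred, so that 0 marks the median over 4532 probes with a value on every array. They compare 1 probe with the embryo, and say nothing of which mRNA was more abundant. Between 15944 and 16598 probes were measured on the 108 h arrays, against 10404 to 14465 on the 24 h arrays. Dim spots show as ratios of small whole numbers, whose share ran between 4.01 and 10.04% on the 108 h arrays and between 41.3 and 56.1% on the 24 h arrays. The labels do not give the direction of the ratio, and neurosphere over embryo is called likely here because the design text names the neurospheres as channel 1 and because of marker genes. In this direction the median of 10 neural stem genes lay above 0 on 12 of 12 arrays (level 2.76) and that of 9 non-neural embryo genes (liver, blood protein, collagen and muscle) on 0 of 12 (level −5.53), while the 5 neuronal genes lay at −2.23. With the ratio turned, every level and difference given here would change sign, and the counts above and below 0 would change places. Array-to-array correlations were 0.604 to 0.783 within groups and 0.552 to 0.781 between groups. The only Prom1 probe averaged −0.48 (n = 2) in prominin and −3.06 (n = 3) in control cultures at 108 h, and −1.03 (n = 2) in prominin and 1.19 (n = 2) in control cultures at 24 h. Cultures labelled prominin thus lay above those labelled control at 108 h and below them at 24 h, and whether a mouse probe detects R-prominin1 was not tested.

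The factors were well measured. Of the 61 probes, 44 (72.1%), from 39 genes, had a value on all 12 arrays, against 20.8% of all probes. Small whole-number ratios made up 6.97% of their 689 values, against 24.6% among all probes. Exact zeros, read as missing, took 11 of their values at 108 h and 26 at 24 h, and the top code took 0 at 108 h and 6 at 24 h. A test needed 2 values in every group, which 54 probes of 49 genes had. Eif4e2 and Eif4e3 (cap-binding relatives of eIF4E), Eif2b1 and Eif2b3 (eIF2B subunits) and the amino-acid-sensing eIF2 kinase gene Eif2ak4 were not tested, nor were the second probes of Eef1a2 and Eif2ak2.

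Most factors lay a little below the median probe. Among the 44 probes with 12 values, 34 (77.3%) had a mean below 0, against 48.6% of all such probes, and 32 (72.7%) lay within 1 of it, against 56.4%. Their median was −0.47, beside 0.05 over all 4532 probes. Of the 44, 9 lay below 0 on every array, a larger share than the 14.8% of all such probes. A single 1 of the 44 lay above 0 on every array, a smaller share than the 13.2% of all such probes. That probe was Eif4a2, a helicase of eIF4F, at 0.67 ± 0.20 (SD, n = 12) with values from 0.26 to 0.97. No more than 3 of the 4532 probes, Eif4a2 included, had an SD this small, and the median SD was 0.91 over the factors and 0.95 over all probes.

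**Figure D1:**
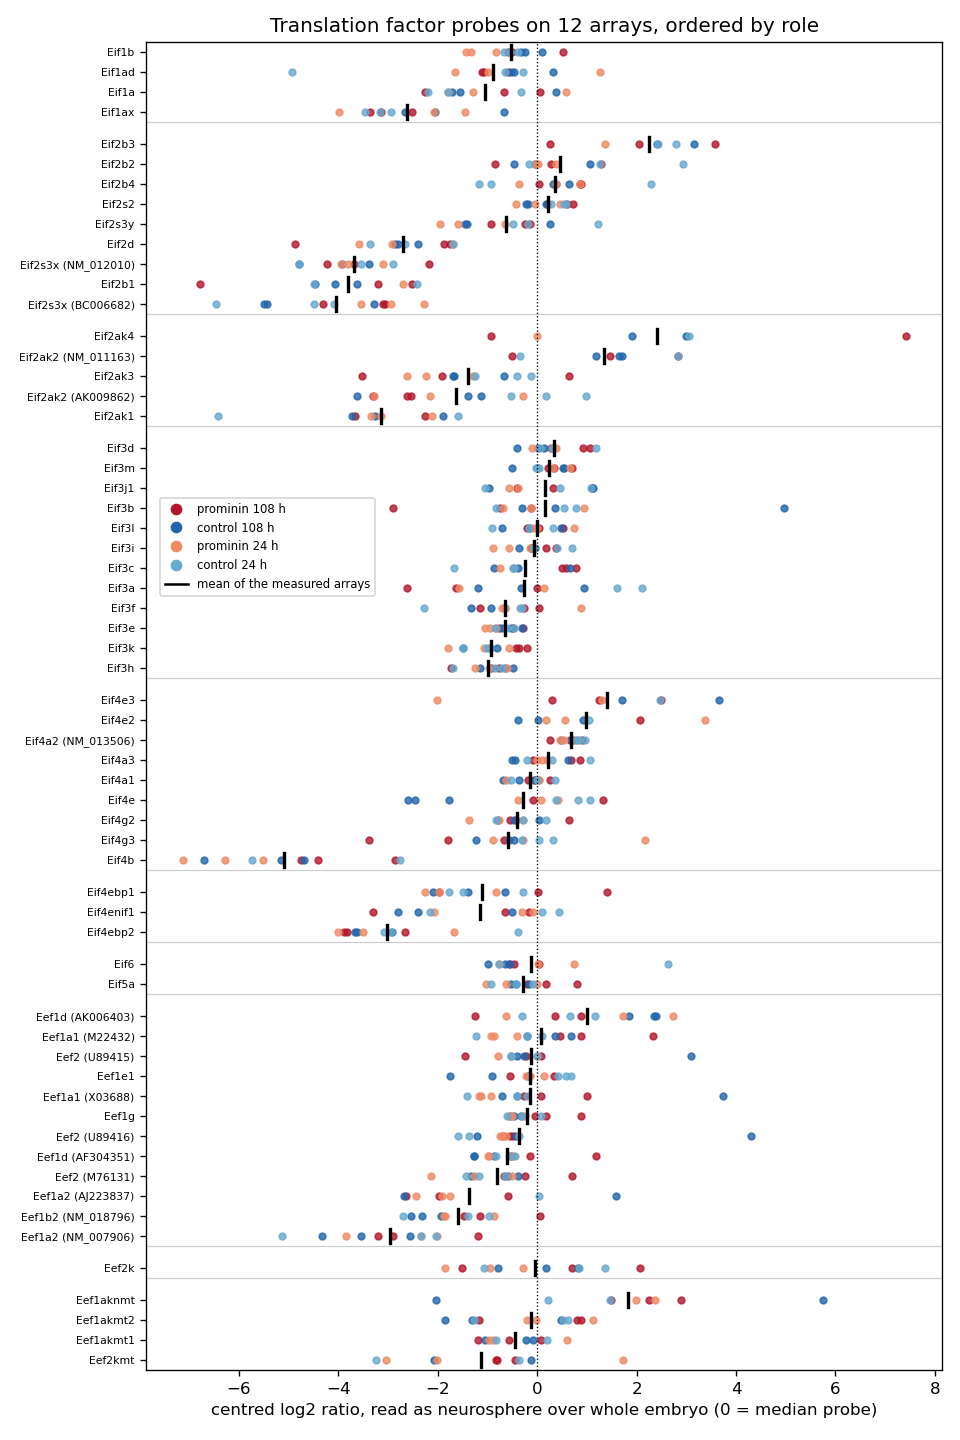
Centred log2 ratio, read as neurosphere over whole-embryo RNA (x axis), for the 61 probes, grouped by role from scanning factors at the top to methyltransferases of elongation factors at the bottom. Each point is 1 array in the colour of its group and each black bar the mean of the measured arrays; eIF3 probes gather near 0, whereas the means of Eif4b, Eif2s3x, Eif2b1, Eif2ak1 and Eif4ebp2 lie at or below −3.02.

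The low ratios belonged to few genes. Eif4b, which stimulates the eIF4A helicase, averaged −5.09 ± 1.41 (SD, n = 11) and was below 0 on every array that measured it. Eif2s3x, the X-linked gamma subunit of eIF2, averaged −4.04 ± 1.25 and −3.69 ± 0.75 with its 2 probes (n = 12 each), whereas its Y-linked counterpart Eif2s3y lay at −0.63 ± 0.90. Eif2b1 averaged −3.81 ± 1.37 (n = 9), the haem-regulated eIF2 kinase gene Eif2ak1 −3.14 ± 1.39 (n = 10), and Eif4ebp2 −3.02 ± 1.06 (n = 12). Eif2d, an initiator tRNA-binding factor, averaged −2.70 ± 0.94 and Eif1ax −2.63 ± 0.93 (n = 12 each). For Eef1a2, the form of eEF1A found in neurons and muscle, one probe averaged −2.96 ± 1.11 (n = 12), while the second averaged −1.38 ± 1.44 (n = 9) and lay above 0 on 2 arrays.

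The highest mean ratios were seen where few arrays gave a value. Eif2ak4 averaged 2.41 ± 2.93 (n = 6), Eif2b3 2.26 ± 1.06 (n = 8), Eef1aknmt, which methylates eEF1A, 1.82 ± 2.09 (n = 9) and Eif4e3 1.40 ± 1.71 (n = 8). Small whole-number ratios made up 2 of the Eif2ak4 values, 4 of the Eif2b3 values, 4 of the Eef1aknmt values and 2 of the Eif4e3 values. The eIF3 subunits, which bring mRNA to the small ribosomal subunit, lay close together. All 12 had means between −0.98 (Eif3h) and 0.34 (Eif3d), with a median of −0.15. Eif3e was the steadiest of them, at −0.65 ± 0.25 and between −1.06 and −0.29 on the 12 arrays.

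No factor passed limma's test at an adjusted p of 0.05 in any comparison, with p-values adjusted over all 9155 probes tested. Between prominin and control cultures at 108 h, 0 of 54 probes passed (background 0%), and 4 (7.41%) had an unadjusted p under 0.05, against 6.82% of all probes. At 24 h, 0 passed (background 0%) and 4 (7.41%) had such a p, against 4.58%. The change of the prominin difference with time gave 0 calls (background 0%) and 3 probes (5.56%), against 5.95%. For 108 h against 24 h, prominin cultures gave 0 calls (background 0.0218%) and 3 probes (5.56%, against 8.81%), and control cultures gave 0 calls (background 0%) and 3 probes (5.56%, against 6.94%). Averaged over cultures, the time difference gave 0 calls (background 0.0546%) and 4 probes (7.41%, against 9.7%), and averaged over times, the prominin difference gave 0 calls (background 0%) and 4 probes (7.41%, against 5.06%). The shares lay near the background in each comparison. The median standard error of a prominin difference was 0.78 at 108 h and 0.79 at 24 h for these probes.

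The totals of groups that do not overlap also lay near the background. Prominin cultures lay wholly above controls for 7 probes and wholly below for 2 at 108 h (16.7%, against 15.8% of all probes, 7.85% above and 8% below). At 24 h they did so for 2 and 7 (16.7%, against 16.5% of all probes, 6.49% above and 9.99% below). In prominin cultures 108 h lay wholly above 24 h for 9 probes and below for 0 (16.7%, against 19.6% of all probes, 10.1% above and 9.5% below). In control cultures it did so for 3 and 8 (20.4%, against 18.6% of all probes, 8.4% above and 10.2% below). By direction the counts were more one-sided than those of all probes in each of these 4 comparisons, and this split was not tested. The prominin difference was above 0 for 35 of 54 probes at 108 h (50.1% of all probes), with a median of 0.33, and for 21 of 54 at 24 h (46% of all probes), with a median of −0.16. With time it was 108 h that lay higher for 33 of 54 probes in prominin cultures (50.3% of all probes) and for 25 of 54 in control cultures (47.5%). Without centring, the median difference of all probes was −1.07 at 108 h and 0.58 at 24 h (prominin against control), −1.06 with time in prominin and 0.61 in control cultures, and −1.69 in the interaction. After centring these medians were 0.0042, −0.095, 0.0053, −0.062 and 0.060 in the same order, and all differences given are on the centred scale.

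**Figure D2:**
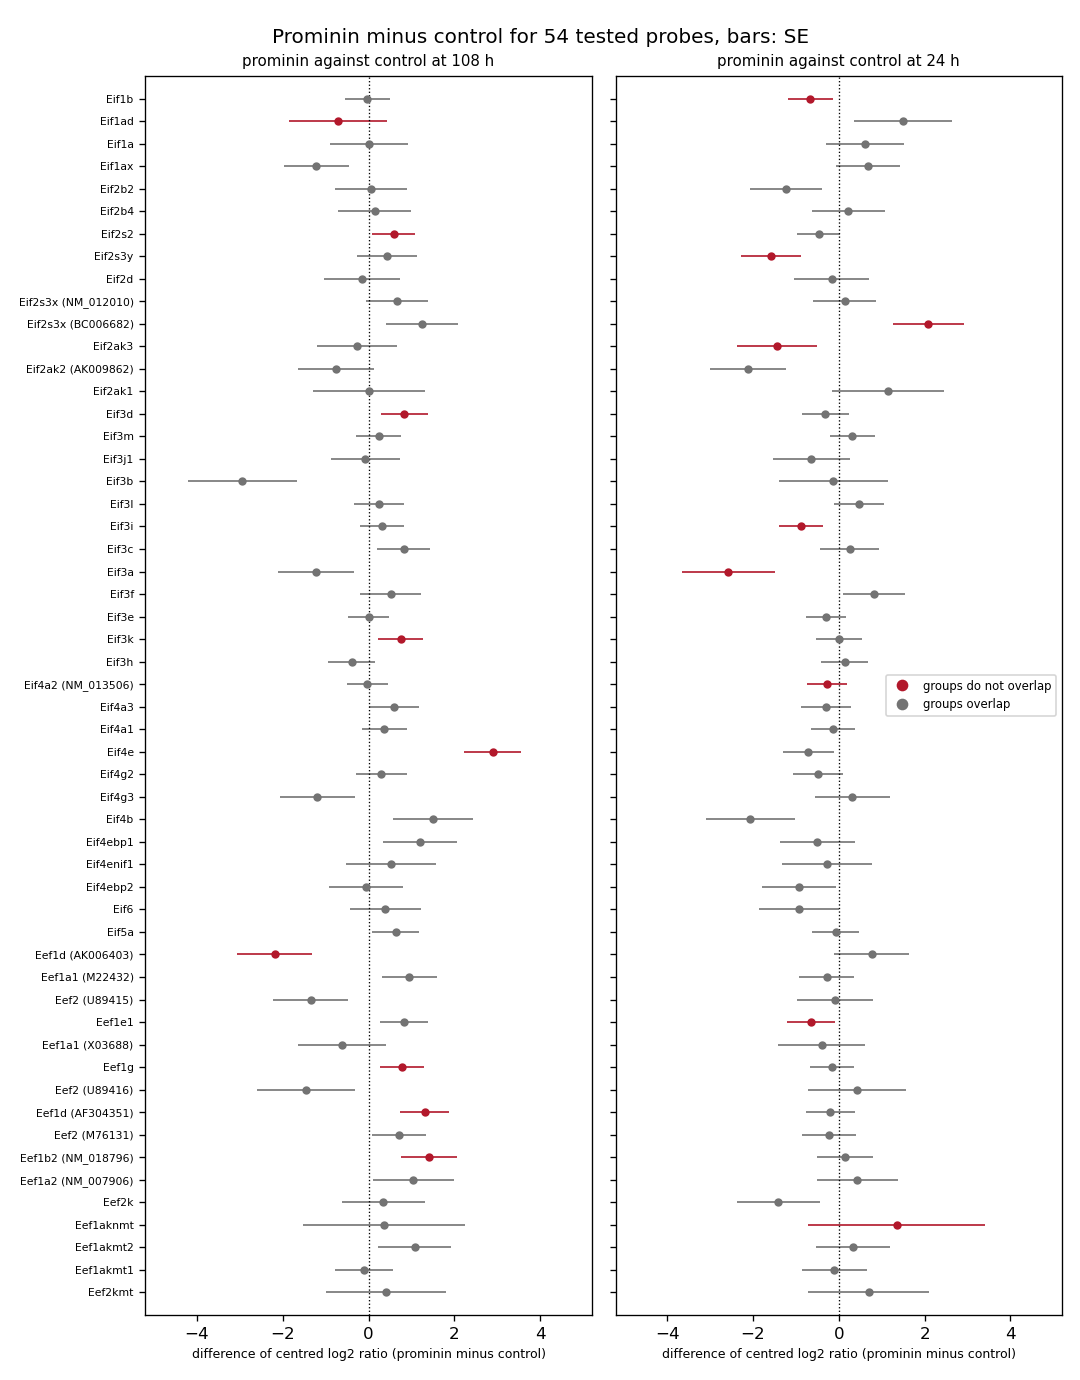
Difference of the centred log2 ratio, prominin minus control, at 108 h (left) and 24 h (right) for the 54 tested probes, in the order of the roles. Points are differences, bars standard errors, and red marks probes whose 2 groups do not overlap (9 at each time); Eif4e at 108 h lies farthest to the right at 2.89.

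Eif4e, the cap-binding protein gene, had the smallest p of the factors between prominin and control cultures at 108 h, in the interaction, and with time in control cultures. It was measured in prominin cultures at 108 h at 1.32 and −0.09 (replicate 3 was an exact 0 and counted as missing), against −2.60, −2.47 and −1.78 in control cultures at 108 h. At 24 h it lay at 0.08, −0.38 and 0.42 in prominin cultures and at 0.82, 0.38 and 1.05 in control cultures. The 3 control arrays at 108 h were thus the low ones, and all other 8 values lay between −0.38 and 1.32. Of the 11 values 2 were small whole-number ratios, both in control cultures at 24 h (replicates 1 and 3). Eif4e was therefore not tested in the alternative that set such ratios to missing. It was also not tested in the alternative that asked for 3 values in every group.

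The prominin difference of Eif4e at 108 h was 2.89 (SE 0.66), with means of 0.61 ± 1.00 (SD, n = 2) in prominin and −2.28 ± 0.44 (SD, n = 3) in control cultures. It did not pass limma's test (adjusted p = 0.655). An exact two-sided permutation test of these arrays, with the p of 1 tail doubled, gave p = 0.2, the smallest its 10 arrangements allow. In control cultures 108 h minus 24 h was −3.03 (SE 0.59, adjusted p = 0.341 with limma, exact permutation p = 0.1, the smallest of 20 arrangements). Groups that do not overlap always reach the smallest permutation p. Such groups were seen for 15.8% of all probes between cultures at 108 h and 18.6% with time in control cultures. Since Eif4e was picked by its small p, the permutation tests add no support. In prominin cultures 108 h minus 24 h was 0.57 (SE 0.66), −0.45 without centring and −0.14 without prominin 108 h replicate 1. The difference at 24 h was −0.71 (SE 0.59), and the interaction was 3.60 (SE 0.89, adjusted p = 0.805 with limma). Without centring the interaction was 1.89 and the 108 h difference 1.86, and leaving out 1 array at a time put the 108 h difference between 2.19 and 3.60.

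**Figure D3:**
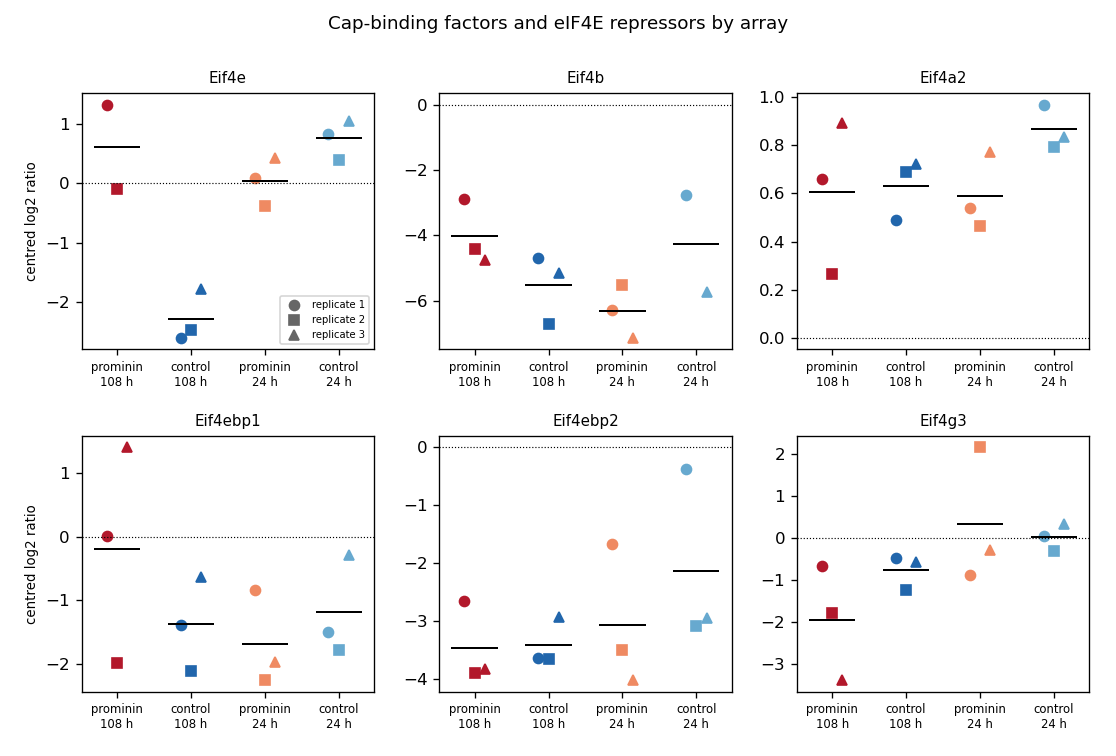
Centred log2 ratio (y axis) of 6 genes of cap-dependent initiation on each array, by group (x axis), with replicates by symbol and the group mean as a bar; the y axes differ between panels. The control 108 h arrays of Eif4e lie between −2.60 and −1.78, below all its other arrays, while Eif4a2 stays between 0.26 and 0.97.

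The region before the second annotated start of Eif4e holds the letters CACGTG, the E-box that transcription factors such as MYC can bind, at 2 places, 228 and 64 bases before that start. The letters read the same on both strands. They are printed in capitals below beside those of 3 other factors, since Eif4e had the smallest p of the factors in 3 of the 7 comparisons. Of 54 genes, 42 had a window of 250 bases before to 50 after an annotated start in RefSeq's table (GRCm38.p6). CACGTG stood in 12 of their 57 windows (21.1%), against 7.15% of 32851 windows; some windows of a gene overlap. A match is a description of these letters only.
Eif4e, chr3:138527020-138527065, plus strand: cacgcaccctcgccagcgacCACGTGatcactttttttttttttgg
Eif4e, chr3:138527184-138527229, plus strand: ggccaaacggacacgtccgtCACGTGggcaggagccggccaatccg
Eef2, chr10:81176568-81176613, plus strand: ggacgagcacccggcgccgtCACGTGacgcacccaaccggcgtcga
Eif4a1, chr11:69672587-69672632, minus strand: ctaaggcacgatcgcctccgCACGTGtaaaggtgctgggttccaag
Eif3k, chr7:28981907-28981952, minus strand: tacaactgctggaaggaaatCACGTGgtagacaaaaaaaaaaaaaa

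The eIF4E-binding protein genes had wide spreads. Eif4ebp1 lay at 0.02, −1.98 and 1.40 in prominin and at −1.39, −2.10 and −0.64 in control cultures at 108 h, a difference of 1.19 (SE 0.87, adjusted p = 0.813 with limma). At 24 h it lay at −0.83, −2.25 and −1.97 in prominin and at −1.50, −1.77 and −0.29 in control cultures. The groups overlapped at both times. Eif4ebp2 averaged −3.46 ± 0.70 in prominin and −3.40 ± 0.42 in control cultures at 108 h, and −3.06 ± 1.23 in prominin and −2.14 ± 1.52 in control cultures at 24 h (SD, n = 3 each). Its prominin differences were −0.058 (SE 0.86) at 108 h and −0.93 (SE 0.86) at 24 h. The eIF4E transporter gene Eif4enif1 had a prominin difference of 0.53 at 108 h and −0.28 at 24 h.

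Among the other probes of eIF4F and its helpers, Eif4b lay at −2.87, −4.41 and −4.76 in prominin cultures at 108 h, against −6.28, −5.52 and −7.14 in prominin cultures at 24 h. These groups did not overlap, and the difference was 2.30 (SE 0.93, adjusted p = 0.509 with limma). Control cultures overlapped, at −4.70, −6.71 and −5.16 at 108 h and −2.76 and −5.74 (n = 2) at 24 h. The interaction of Eif4b was 3.57 (SE 1.40, adjusted p = 0.817 with limma). Eif4g3, a scaffold of eIF4F, had a time difference of −2.29 (SE 0.88) in prominin cultures, in which replicate 2 at 24 h stood at 2.17 and the other 5 values between −3.39 and −0.28. The 7 tested probes of eIF4F and its helpers were grouped by gene symbol and include Eif4a3, Eif4b and Eif4g2. In control cultures 0 of these 7 had a time difference above 0 (median −0.50, all probes −0.062), which became 4 of 7 without centring (median 0.19, all probes 0.61). In prominin cultures 6 of 7 lay above 0 (median 0.39, all probes 0.0053), and 1 of 7 without centring (median −0.67, all probes −1.06).

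Between prominin and control cultures at 24 h, 4 of 54 factor probes (7.41%) had an unadjusted p under 0.05 with limma, against 4.58% of all probes. Of these 4, 3 belonged to the eIF2 subunits and kinases, and their differences ran in both directions. The 54 probes include 3 of the eIF2 kinases and 7 of the ternary complex and its exchange factor. Of the kinases, Eif2ak2 (PKR, which senses double-stranded RNA) lay at −0.28, −3.28 and −2.16 in prominin and at 0.98, −0.53 and 0.17 in control cultures at 24 h. The groups overlapped, and the difference was −2.12 (SE 0.89, adjusted p = 0.998 with limma). At 108 h the probe lay at −2.55, −2.61 and −3.30 in prominin and at −1.14, −3.63 and −1.39 in control cultures. In control cultures 108 h lay wholly below 24 h, a difference of −2.26 (SE 0.89, adjusted p = 0.643 with limma). The second Eif2ak2 probe, with 8 values, disagreed with the first, whose value minus that of the second averaged −3.23 over the 8 shared arrays (SD 1.88). Eif2ak3 (PERK, the kinase of the endoplasmic reticulum) lay at −2.62, −1.28 and −2.23 in prominin cultures at 24 h, below control cultures at −0.42, −1.26 and −0.12, a difference of −1.45 (SE 0.93).

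Both gamma subunit genes of eIF2 had groups that did not overlap at 24 h, in opposite directions. One is Y-linked and the other X-linked, and the sex of the embryos was not part of the fit. Eif2s3y lay at −1.96, −1.59 and −0.65 in prominin and at −0.49, −0.18 and 1.21 in control cultures, a difference of −1.58 (SE 0.70, adjusted p = 0.998 with limma). One Eif2s3x probe lay at −2.27, −2.95 and −3.55 in prominin and at −4.09, −4.48 and −6.45 in control cultures, a difference of 2.08 (SE 0.83, adjusted p = 0.998 with limma). The other Eif2s3x probe did not show this, with a difference of 0.14. Eif2s2, the beta subunit, lay at 0.73, 0.20 and 0.60 in prominin and at −0.18, 0.19 and −0.23 in control cultures at 108 h, which did not overlap and gave a difference of 0.58 (SE 0.50).

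The partners of the factors came from a list drawn up by pathway. Of 32 genes of mTOR signalling, poly(A)-binding proteins, termination and the stress response, 30 had a probe and 26 probes of 25 genes were tested. At 108 h 0 passed between prominin and control cultures, 15 differences lay above 0 and 11 below (median 0.028), and 3 of 26 had an unadjusted p under 0.05 (6.82% of all probes did). These 3 were Atf4, the transcription factor translated when eIF2 is phosphorylated, its target Ddit3 (CHOP), and Ppp1r15b, which directs a phosphatase to eIF2. Atf4 lay at 0.04, −0.22 and −0.54 in prominin and at −2.02, −1.48 and −1.67 in control cultures at 108 h, a difference of 1.48 (SE 0.49, adjusted p = 0.717 with limma). Ddit3 lay at 2.63, 2.34 and 0.94 in prominin and at 0.55, −1.04 and 0.04 in control cultures, a difference of 2.12 (SE 0.85, adjusted p = 0.717 with limma). Ppp1r15b lay at 2.62, −0.40 and −1.47 in prominin and at −2.42, −1.87 and −2.16 in control cultures, a difference of 2.40 (SE 1.06, adjusted p = 0.725 with limma). On the centred scale none of these 3 pairs of groups overlapped, as held for 15.8% of all probes. Without centring the groups of all 3 genes overlapped at 108 h, where the median difference of all probes was −1.07. Gspt1 was the only other listed probe whose centred groups did not overlap at 108 h.

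At 24 h the same 3 genes overlapped between the cultures, with prominin differences of −0.20 (Atf4), −1.63 (Ddit3) and 0.36 (Ppp1r15b). In prominin cultures Ddit3 stood 3.70 (SE 0.85) above its 24 h level at 108 h, where 24 h values were −1.80, −0.26 and −3.11. This had the smallest p of the list in that comparison and did not pass (adjusted p = 0.212 with limma). Of other genes known as ATF4 targets, Asns, the asparagine synthetase gene, had a prominin difference of −1.08 (SE 0.76) at 108 h, Trib3, a pseudokinase gene that ATF4 and CHOP induce, one of −0.16 (SE 0.85), and Sesn2, a restraint on mTOR, one of −0.12 (SE 0.98). The groups of all 3 overlapped. Trib3 lay at 5.19 ± 1.12 (SD, n = 12) over all arrays.

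**Figure D4:**
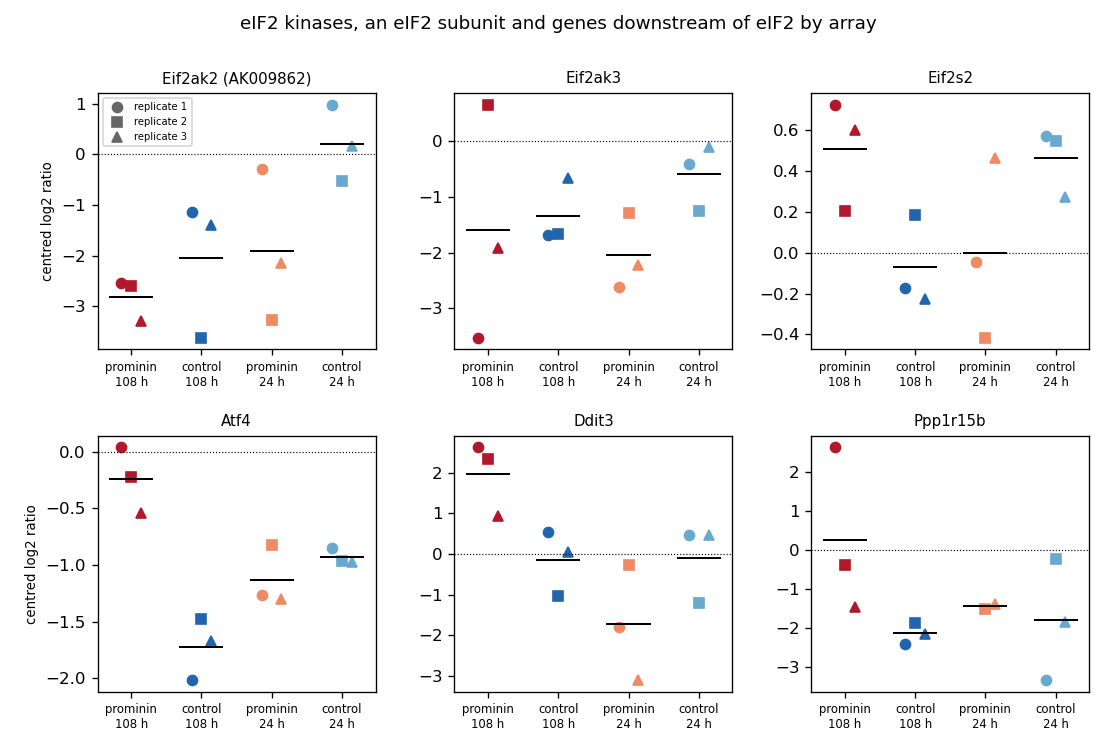
Centred log2 ratio (y axis) of 2 eIF2 kinases, the eIF2 beta subunit, Atf4, Ddit3 and Ppp1r15b, which acts on eIF2, on each array, by group (x axis), with replicates by symbol and the group mean as a bar; the y axes differ between panels. At 108 h the prominin arrays of Atf4 (−0.54 to 0.04), Ddit3 (0.94 to 2.63) and Ppp1r15b (−1.47 to 2.62) lie above the control arrays.

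Of the other listed genes, Tsc2, which restrains mTOR, lay at −2.13, −2.51 and −2.46 in prominin and at −0.52, −1.05 and −1.62 in control cultures at 24 h, a difference of −1.30 (SE 0.53, adjusted p = 0.998 with limma). It was the single listed probe of 26 with an unadjusted p under 0.05 there, and 13 differences lay above 0 and 13 below. With time, Larp1, a repressor of mRNAs that begin with a pyrimidine run, had a difference of −1.92 (SE 0.81) in control cultures, and Paip2, an inhibitor of poly(A)-binding protein, one of 1.80 (SE 0.71). In prominin cultures Rps6, the ribosomal protein that S6 kinase phosphorylates, lay at −3.41, −4.06 and 2.36 at 108 h, against −4.42, −5.63 and −6.56 at 24 h, a difference of 3.83 (SE 1.55). Replicate 3 at 108 h stood apart from the other 5 values, and without it the difference was 1.80 (SE 1.14). None of these differences passed.

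No eIF3 subunit or scanning factor passed the test. At 108 h 7 of 12 eIF3 probes had a prominin difference above 0 (median 0.24) and at 24 h 6 of 12 (median −0.061). Eif3a, the largest subunit, lay at 0.14 and −1.57 (n = 2) in prominin and at 1.61 and 2.11 (n = 2) in control cultures at 24 h, a difference of −2.57 (SE 1.08, adjusted p = 0.998 with limma). Eif3b, a core subunit, had a difference of −2.94 (SE 1.26) at 108 h, where control replicate 2 stood at 4.98 and the other 2 control arrays at −0.30 and 0.36, against −2.90, −0.74 and −0.13 in prominin cultures. Eif3d and Eif3k had groups that did not overlap at 108 h, with differences of 0.84 and 0.75. Among scanning factors, which pick the start codon, Eif1ax had a difference of −1.22 at 108 h and 0.68 at 24 h. Eif1ad, placed in that group by its symbol alone, had a difference of −0.70 at 108 h and 1.49 at 24 h. In the late steps, Eif5a, which helps the ribosome through difficult peptide bonds, differed by 0.64 at 108 h and −0.074 at 24 h.

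The elongation factors had their highest values on few arrays. Of 11 elongation probes tested, 5 had their highest value on prominin 108 h replicate 3: one probe each of Eef1a1, Eef2 and Eef1d, and the probes of Eef1b2 and Eef1g. The median of the 11 probes was 0.70 on that array, −0.27 and −0.49 on the other 2 prominin arrays at 108 h, and −0.59, −0.19 and −0.47 on the control arrays at 108 h. The median of 54 ribosomal protein probes was 1.72 on that array as well, against −0.12 and −0.01 on the other prominin arrays and −0.76, −0.32 and −0.40 on the control arrays at 108 h.

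Eef1b2 and one Eef1d probe, which peaked there, had groups that did not overlap at 108 h. Eef1b2, the exchange subunit of eEF1B, lay at −1.48, −1.16 and 0.05 in prominin and at −2.33, −2.53 and −1.94 in control cultures, a difference of 1.40 (SE 0.66, adjusted p = 0.725 with limma), and of 0.95 without prominin 108 h replicate 3. One Eef1d probe lay at −0.14, −0.54 and 1.17 in prominin and at −1.27, −1.27 and −0.88 in control cultures, a difference of 1.31 (SE 0.57, adjusted p = 0.725 with limma), and of 0.80 without that array. The second Eef1d probe ran the other way, at 0.36, −1.25 and 0.89 in prominin and 2.38, 1.84 and 2.34 in control cultures, a difference of −2.19 (SE 0.88, adjusted p = 0.717 with limma). That probe gave 6 small whole-number ratios among 12 values, and the first gave 1. The mean of the Eef1d probes differed by −0.44.

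Over the 11 elongation probes the median prominin difference at 108 h was 0.78, with 7 above 0 and all probes at 0.0042. It was 0.40 without prominin 108 h replicate 3, and without centring it was −0.29, with all probes at −1.07. Control 108 h replicate 2 carried 3 of the highest values, 4.30 and 3.09 for 2 Eef2 probes and 3.75 for an Eef1a1 probe. The third Eef2 probe lay at −1.34 on that array, and the other Eef1a1 probe at 0.68. On that array the third Eef2 probe minus a partner reached −5.64. Without this array, which was picked after its values were seen, 9 of 11 prominin differences lay above 0. Over all probes 4617 of 9155 did so, and the 11 probes come from 7 genes. Eef2k had a difference of 0.35 (SE 0.97) at 108 h and −1.41 (SE 0.97) at 24 h.

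With time, Eef1a1 had the smallest p of the factors in prominin cultures. One probe lay at 0.47, 0.88 and 2.33 in prominin cultures at 108 h, against −0.41, −0.93 and −0.86 at 24 h, a difference of 1.96 (SE 0.64, adjusted p = 0.375 with limma), and of 1.40 without prominin 108 h replicate 3. The second probe differed by 1.34 and did not overlap either. In control cultures the first probe lay at −0.21, 0.68 and 0.36 at 108 h and 0.10, −0.21 and −1.24 at 24 h, which overlapped. Eef1e1, named as an elongation factor but a scaffold of aminoacyl-tRNA synthetases, lay at −0.91, −0.19 and −1.76 at 108 h, below 0.68, 0.42 and 0.59 at 24 h in control cultures, a difference of −1.52 (SE 0.56, adjusted p = 0.619 with limma).

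**Figure D5:**
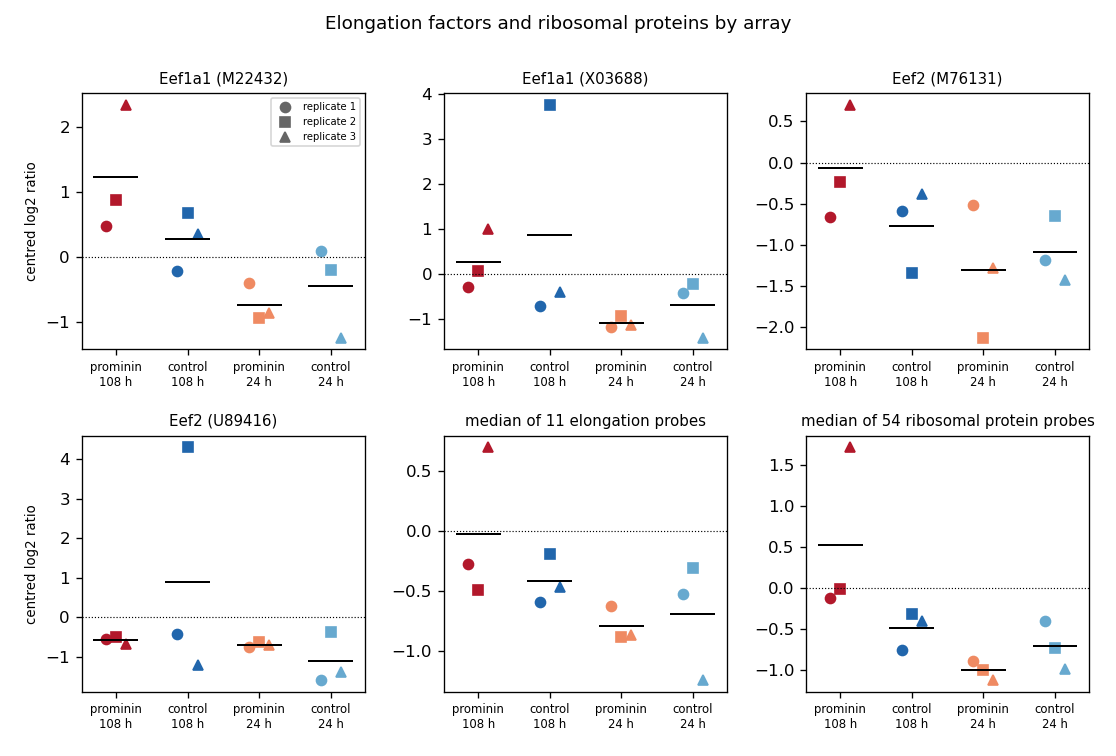
Centred log2 ratio (y axis) of 2 Eef1a1 and 2 Eef2 probes, and the per-array medians of 11 elongation and 54 ribosomal protein probes, by group (x axis), with replicates by symbol and the group mean as a bar; the y axes differ between panels. Prominin 108 h replicate 3 is highest in 4 panels, and control 108 h replicate 2 stands at 3.75 and 4.30 in the other 2.

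Messages of ribosomal proteins and many translation factors begin with a pyrimidine run that places them under mTOR. A stretch of 6 pyrimidines that starts within 10 bases of an annotated start, either alone or inside a longer run that may begin farther away, was found in 15 of the 57 windows (26.3%), against 25.3% of all windows, on the strand of the gene only. Whether messages begin at these annotated starts was not tested, so the shares do not tell which messages begin with a run. For 4 factors the whole run is printed in capitals, from 15 bases before to 14 after RefSeq's annotated start (GRCm38.p6). They are the X and Y copies of eIF2 gamma and 2 other factors.
Eif2s3x, chrX:94212637-94212666, minus strand: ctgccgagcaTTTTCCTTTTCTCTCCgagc
Eif2s3y, chrY:1010580-1010609, plus strand: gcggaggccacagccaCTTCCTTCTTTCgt
Eif3f, chr7:108934400-108934429, plus strand: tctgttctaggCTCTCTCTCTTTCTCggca
Eef1a1, chr9:78481710-78481739, minus strand: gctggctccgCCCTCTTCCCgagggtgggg
The runs are 16, 12, 15 and 10 bases long. Eif2s3x and Eif2s3y both have a run near the annotated start, while their ratios lay at −4.04 and −3.69 for the Eif2s3x probes and −0.63 for Eif2s3y. Since bulk RNA was measured, fewer cells of a type and less RNA per cell cannot be told apart in any of these values.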

How the data were processed

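RNA of 12 neurosphere samples was measured on two-colour mouse arrays. The deposited table holds log2 ratios, 1 column an array; scanner, normalization and direction of the ratio: not given in the sources used here. The deposited log2 values had array medians from −2.59 to −0.84. Groups came from the titles. Exact zeros and a top code were set to missing, and each array was centred on the 4532 probes measured on all arrays. Gene names came from the series' probe annotation, in which 16620 probes have 1 symbol. A probe needed 2 or more values per group, which left 9155 for the fit with limma 3.58.1 in R 4.3.3, with 1 mean per group, 7 contrasts, moderated variance and Benjamini-Hochberg adjustment; the fit was tested on simulated data. The number of arrays limits the precision. Named factors are Eif4e, the Eif4ebp genes, up to 4 probes in each direction by smallest p in each comparison, and up to 3 listed pathway genes. Others were named for their group separation or for an array value after their values were seen. Members and lists were chosen with earlier results of these data known. The labels do not say whether replicate numbers pair the samples, and the main fit did not pair them. Alternatives covered centring, missing codes, dim spots, filters, probe averaging, weights, moderation and each array left out.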

Additional observations from a re-analysis of the deposited data

How the results depend on the processing

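No factor was called under any alternative that tested it, in any of the 7 comparisons. Some alternatives did not test every factor, and 2 of them left out Eif4e. The counts below are over all probes tested. With zeros and the top code kept, calls were 25 (prominin at 24 h), 17 (interaction), 11 (time in control), 16 (time in prominin), 26 (time averaged) and 25 (prominin averaged), against 0, 0, 0, 2, 5 and 0. Time in prominin cultures gave 7 without centring, 21 with small whole-number ratios missing, 21 with 3 values in every group, 1 with probes averaged and 7 without moderation. Time averaged gave 23 with small whole-number ratios missing, 2 with at least 1 value, 34 with 3 values, 16 with array weights and 36 without moderation. Time in control gave 2 with 3 values, and prominin averaged 1 with small whole-number ratios missing. Leaving out 1 array gave 0 to 2 (prominin at 24 h), 0 to 1 (interaction), 0 to 1 (time in control), 0 to 2 (time in prominin) and 2 to 4 (time averaged). The median level of the factors was −0.29, −1.89 without centring, and −0.42 to −0.28 with 1 array left out. The replicate block, which treats same-numbered arrays as belonging together, gave 2 calls for time averaged, against 5, and left the other 6 counts unchanged. Deviations from the group mean correlated at −0.07 to 0.12 between same-numbered arrays of different groups, and at −0.12 to 0.12 between the others. For prominin and control arrays at 108 h these ranges were 0.050 to 0.12 and −0.12 to 0.010. Whether the numbers pair the samples is not settled by these values.

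Reversed values, none of which passed the test, were as follows, and the cause was not tested. Without centring, Eif4ebp1 lay at 0.18 (prominin at 24 h), −0.066 (interaction) and 0.50 (time in control), Eif4ebp2 at −0.89, Eef1d at −0.25 and Atf4 at −0.071 (interaction), and Eif1b at −0.049 and Eif4e at −0.45 (time in prominin). With probes averaged, Eef1d lay at −0.44 (prominin at 108 h), −0.72 (interaction) and −0.079 (prominin averaged). With quantile normalization Eif4ebp1 lay at 0.11 (time in control). With 1 array left out, Eif4ebp2 ran from −0.46 to 0.18 (prominin at 108 h; 0.16 and 0.13 without prominin 108 h replicates 2 and 3, 0.18 without control 108 h replicate 3), −0.0085 to 1.56 (interaction) and −0.87 to 0.30 (time in prominin). Eif4ebp1 ran from −0.56 to 0.26 (time in control; 0.17 without control 108 h replicate 2) and −0.050 to 0.80 (prominin averaged), and Eif4e from −0.14 to 1.27 (time in prominin).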

Other observations

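The 5 probes set apart had values of their own. The Eef1a1 pseudogene probe lay at 0.17, 1.11 and 2.09 in prominin cultures at 108 h, against −0.57, −0.87 and −0.64 at 24 h, and thus had its highest value on the same array as one Eef1a1 probe. The Eif2s3x pseudogene probe lay above 0 on all 12 arrays, at 2.78 ± 1.30 (SD), whereas both Eif2s3x probes lay below 0 on all 12. The 3 probes in the run of small nucleolar RNA accessions were measured on 6 to 8 arrays, and the probe annotated Eif4a2 averaged 1.72 ± 1.90 (n = 6), beside the 0.67 ± 0.20 of the other Eif4a2 probe.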
